A study of Mus musculus with 6 samples.

Results

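Complement genes were compared between Nrf2 knockout and WT mouse bone marrow stromal/stem cells grown in culture. The 9 genes encode the C1q subunits (C1qa, C1qb and C1qc), the components C3, C4b and Cfb, the receptors C3ar1 and C5ar1, and the inhibitor Serping1. They were chosen by name, each by the table row carrying its symbol, and are 9 of 55401 genes in the table; every symbol occurred in 1 row. The study has 3 Nrf2 knockout and 3 WT libraries of messenger RNA, all from cells kept in DMEM with 10% serum and antibiotics. Nrf2, encoded by Nfe2l2, is a transcription factor that turns on antioxidant and detoxifying genes. The knockout allele, the strain, the age of the mice and whether a library is an animal, a culture or a repeat of 1 source are not given in the sources used here. The p-values thus speak only of how far these 6 libraries spread, and that spread may be technical.

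Complement is a set of plasma and cell-bound proteins that tag microbes, dying cells and debris for removal. C1q, built from 3 kinds of chain, recognises the target and sets off the classical route through the proteases C1r and C1s, while factor B serves the alternative route, and both meet at C3. Fragments cut from C3 and C5 act on the receptors made from C3ar1 and C5ar1, and the C1 inhibitor made from Serping1 helps keep the cascade in check. Most circulating components come from the liver. C1q is an exception, made mainly by macrophages and related myeloid cells, which also carry both receptors, whereas fibroblast-like cells are a local source of C1r, C1s and the C1 inhibitor.

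The 3 C1q genes lie side by side on mouse chromosome 4 (mm10), on the minus strand, in the order C1qb (136880129 to 136886187), C1qc (136889804 to 136893065) and C1qa (136895917 to 136898803). The cluster spans 18675 bases, with gaps of 3616 and 2851 bases and no other gene of the table inside it. C3 (57203970 to 57228136), C4b (34728380 to 34743882) and Cfb (34856374 to 34862518) are on chromosome 17. C3ar1 is on chromosome 6 from 122847138 to 122856161, C5ar1 on chromosome 7 from 16246743 to 16259540 and Serping1 on chromosome 2 from 84765387 to 84775444. All of these are on the minus strand as well. Their identifiers in the table are ENSMUSG00000036887 (C1qa), ENSMUSG00000036905 (C1qb), ENSMUSG00000036896 (C1qc), ENSMUSG00000024164 (C3), ENSMUSG00000073418 (C4b), ENSMUSG00000040552 (C3ar1), ENSMUSG00000049130 (C5ar1), ENSMUSG00000090231 (Cfb) and ENSMUSG00000023224 (Serping1).

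The promoter windows of C1qb, C1qc, C5ar1 and C3ar1 are shown because these abundant genes carry the comparisons that follow. Of the 9 genes 5 had a window in the RefSeq table (GRCm38.p6), which runs from 250 bases before the start to 50 after it, in the direction of the gene. The windows are chr4:136886151-136886450 for C1qb, chr4:136892865-136893164 for C1qc, chr7:16259289-16259588 for C5ar1 and chr6:122856108-122856407 for C3ar1, all on the minus strand. Capitals mark matches, on either strand, to the core of the antioxidant response element bound by NRF2 (TGACNNNGC) or to an ETS core (GAGGAA), the kind of site bound by the macrophage factor PU.1.
C1qb: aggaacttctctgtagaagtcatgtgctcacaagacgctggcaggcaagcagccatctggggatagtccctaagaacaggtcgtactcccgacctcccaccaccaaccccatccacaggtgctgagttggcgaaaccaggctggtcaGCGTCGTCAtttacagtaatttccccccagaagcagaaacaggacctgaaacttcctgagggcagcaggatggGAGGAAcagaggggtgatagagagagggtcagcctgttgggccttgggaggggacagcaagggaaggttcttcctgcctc
C1qc: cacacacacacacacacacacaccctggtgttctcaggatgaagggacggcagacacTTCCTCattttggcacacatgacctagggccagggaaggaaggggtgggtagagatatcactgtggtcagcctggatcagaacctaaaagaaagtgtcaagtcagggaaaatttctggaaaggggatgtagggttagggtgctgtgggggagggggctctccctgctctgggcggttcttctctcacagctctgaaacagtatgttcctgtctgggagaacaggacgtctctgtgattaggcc
C5ar1: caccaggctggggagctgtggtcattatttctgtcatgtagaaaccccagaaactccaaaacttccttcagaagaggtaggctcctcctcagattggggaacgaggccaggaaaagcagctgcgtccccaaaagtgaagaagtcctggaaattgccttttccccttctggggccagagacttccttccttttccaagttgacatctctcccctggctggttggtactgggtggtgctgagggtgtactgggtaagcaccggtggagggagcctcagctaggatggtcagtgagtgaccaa
C3ar1: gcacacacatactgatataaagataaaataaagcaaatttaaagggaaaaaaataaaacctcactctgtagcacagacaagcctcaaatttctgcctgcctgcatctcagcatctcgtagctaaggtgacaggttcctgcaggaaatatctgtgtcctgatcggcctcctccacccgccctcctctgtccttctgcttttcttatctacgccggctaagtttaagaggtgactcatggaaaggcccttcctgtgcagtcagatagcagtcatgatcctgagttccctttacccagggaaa
The C1qb window held the antioxidant core on the reverse strand, 103 bases before the start, and an ETS core 30 bases before it. The C1qc window held an ETS core on the reverse strand, 193 bases before the start. The windows of C5ar1, C3ar1 and C3 held neither. None of the 5 held a gamma-interferon activated site (TTCNNNGAA). Of 32851 promoter windows of the same length 12.4% held the antioxidant core, 28.3% the ETS core and 8.3% the gamma-interferon site. The matches shown did not overlap each other. A match of letters is a description of the window and not a binding site.

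Column totals were 20069243 to 21235480 counts in Nrf2 knockout and 18381114 to 21323839 in WT libraries. At these totals 3 counts amount to 0.141 to 0.163 per 1000000 counts. CPM is counts per 1000000 of a library total adjusted by a scaling factor (TMM). Nfe2l2 itself had 118, 149 and 118 counts in knockout libraries, against 3591, 3082 and 3628 in WT libraries, so the labels match in 6 of 6 libraries. RNA of 18 macrophage markers summed to 27530 to 29420 CPM in knockout and 22750 to 32310 CPM in WT libraries. Lyz2, the lysozyme of myeloid cells, made up 42.5% to 44.7% of that sum in knockout and 52.2% to 62.7% in WT, and the other 17 markers summed to 15840 to 16270 CPM in knockout and 8488 to 15450 CPM in WT, with no overlap. In contrast, 18 collagen and other stromal markers summed to 330 to 392 CPM in knockout and 6298 to 26160 CPM in WT. By the edgeR test described below 17 of the 18 stromal markers fell, beside 18.7% of all tested genes. The largest fall was in Thy1, a stromal surface marker, with 0, 1 and 1 counts in knockout and 48, 154 and 285 in WT libraries. Thy1, Pdgfra and Dcn entered the test through their WT counts alone. Lum, too low to test, had 16 counts over the knockout and 16 over the WT libraries. Fn1 still averaged 245 CPM in knockout, against 5537 CPM in WT. The fall in these markers goes against the label of stromal cells for the knockout. That label does not cover all WT RNA either, since WT replicate 1 held 32310 CPM of macrophage markers beside 6298 CPM of stromal ones. The WT libraries were unlike each other, with stromal sums of 6298, 17790 and 26160 CPM in replicates 1, 2 and 3. In bulk RNA, fewer cells of a type and less RNA per cell cannot be told apart.

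Differences were tested with edgeR's quasi-likelihood test over all 13184 genes that passed a filter on low counts, with Benjamini-Hochberg adjustment and a call at an adjusted p under 0.05. Of the 9 complement genes 7 passed the filter, and C4b and Cfb did not. Serping1 fell in knockout and none of the 7 rose, at 1 of 7 called; over all tested genes 32.9% were called, 14.1% higher and 18.7% lower. At an unadjusted p under 0.05 there were 3 of 7, namely C1qb, C5ar1 and Serping1. The genotypes did not overlap for the same 3 genes, 2 higher and 1 lower; over all tested genes the genotypes did not overlap for 50.9%, 24.9% higher and 25.9% lower. DESeq2 called 2 of the complement genes higher, C1qb and C5ar1, and 1 lower, Serping1, where it called 11.3% of all genes higher and 17.2% lower.

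**Figure D1:**
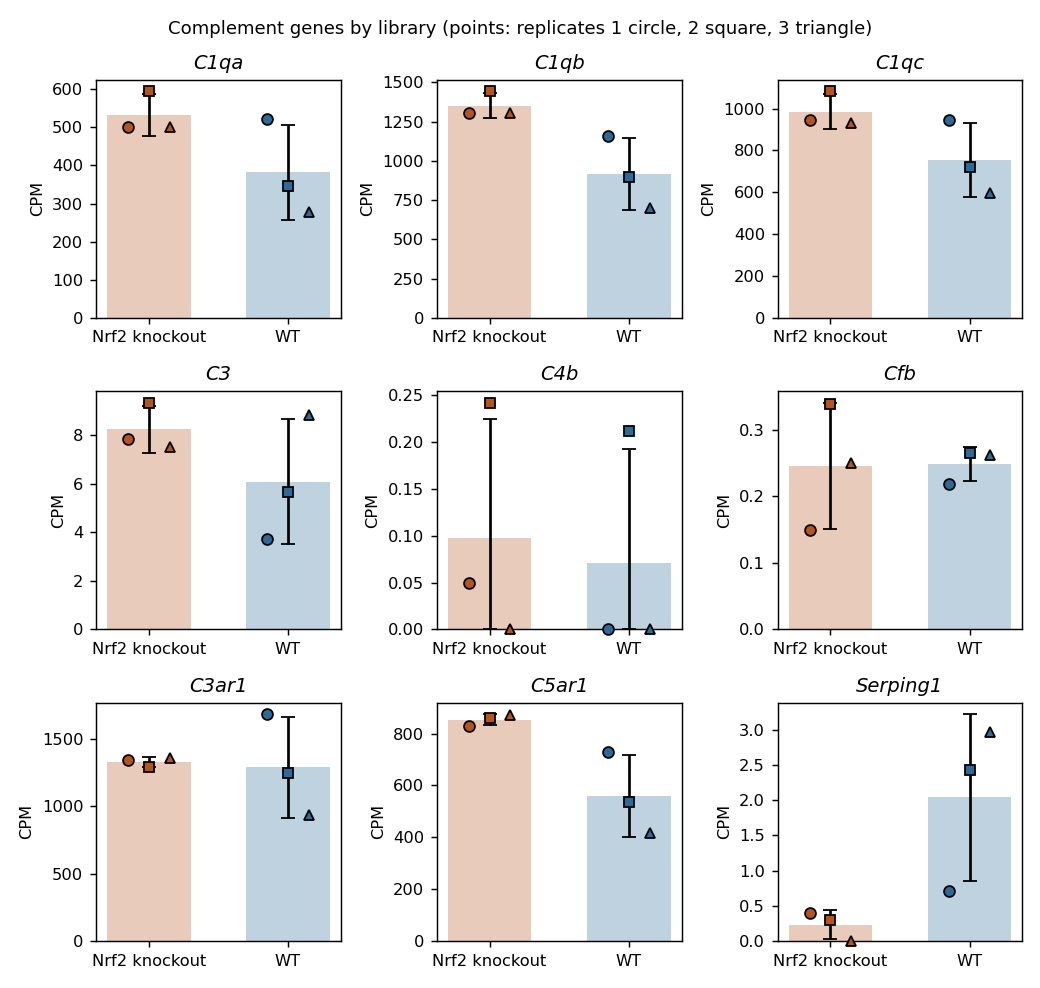
CPM of the 9 complement genes, with a panel per gene and its own linear scale from 0; bars are means, error bars are SD cut off at 0, and points are the 3 libraries of Nrf2 knockout (left) and WT (right). C1qb and C5ar1 were higher in each knockout library than in any WT library, Serping1 was lower, and for the other 6 genes the points of the genotypes overlap.

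The C1q genes were among the most abundant transcripts of both genotypes. On the deposited FPKM scale, which divides by gene length, C1qb averaged 1222 ± 61.9 in Nrf2 knockout and 850 ± 163 in WT libraries (SD, n = 3 each). That placed it 27th by mean FPKM in knockout and 36th in WT. C1qa averaged 502 ± 47.4 FPKM in knockout and 369 ± 98.1 in WT (SD, n = 3 each). C1qc averaged 502 ± 38.7 FPKM in knockout and 394 ± 69.0 in WT (SD, n = 3 each). C1qa and C1qc had similar FPKM, and C1qb stood above both in every library. C1qc FPKM over C1qa FPKM was 0.981 to 1.02 in knockout and 0.979 to 1.15 in WT libraries.

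C1qb, the B chain, had 1307, 1445 and 1307 CPM in Nrf2 knockout libraries, against 1158, 900 and 699 CPM in WT libraries. All 3 knockout libraries lay above all 3 WT libraries, WT replicate 1 being the closest. With a log2 fold change of 0.56 (SE 0.19) and an edgeR adjusted p of 0.057, the difference did not pass. C1qa, the A chain, had 500, 595 and 500 CPM in knockout libraries and 521, 346 and 278 CPM in WT libraries. WT replicate 1 fell between the knockout libraries, and the log2 fold change of 0.48 (SE 0.23) had an edgeR adjusted p of 0.15. C1qc, the C chain, had 945, 1084 and 930 CPM in knockout libraries and 947, 720 and 596 CPM in WT libraries. Here too WT replicate 1 overlapped the knockout, and the log2 fold change of 0.39 (SE 0.18) had an edgeR adjusted p of 0.14.

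The call on the C1q genes turned on WT replicate 1, on the test and on the scaling. Without that library the log2 fold changes were 0.78 for C1qa, 0.77 for C1qb and 0.59 for C1qc, with edgeR adjusted p of 0.00041, 0.00049 and 0.0017. In that fit 4 of the complement genes were called higher, the fourth being C5ar1, where 23.1% of all tested genes were called higher. Over 16 alternatives C1qb passed in 8, with an adjusted p from 0.00049 to 0.51, C1qc in 2 and C1qa in 1. Over them the log2 fold change ranged from 0.02 to 0.78 for C1qa, from 0.08 to 0.77 for C1qb and from -0.09 to 0.59 for C1qc. The lowest value of each came from scaling the libraries to the macrophage markers other than Lyz2.

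The C1q chains kept nearly fixed proportions. Of the summed C1q FPKM, C1qb made up 55.3%, 54.0% and 55.5% in Nrf2 knockout libraries and 51.8%, 53.9% and 52.7% in WT libraries, so that the genotypes did not overlap but nearly touched. C1qa made up 22.2% to 23.3% in knockout and 21.7% to 24.4% in WT. C1qc made up 22.3% to 22.8% in knockout and 23.9% to 25.3% in WT, with no overlap. An exact permutation test, two-sided, gave p = 0.1 for the share of C1qb and for that of C1qc, the smallest that 3 against 3 libraries allow (0.133 each, adjusted over 4 ratios, which were chosen after their values were seen).

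C1q transcripts together took 0.270%, 0.304% and 0.272% of all counts in Nrf2 knockout libraries and 0.250%, 0.202% and 0.169% in WT libraries. Set against the macrophage markers of the same library, summed C1q CPM was 9.65%, 10.6% and 9.94% of the marker sum in knockout and 8.13%, 7.56% and 6.91% in WT. This proportion was higher in all 3 knockout libraries than in any WT library, but not when Lyz2 was left out of the sum. Against the other 17 markers C1q was 17.1%, 19.2% and 17.3% in knockout and 16.99%, 17.7% and 18.5% in WT, and the genotypes overlapped. With libraries scaled to all 18 markers the log2 fold changes were 0.42 for C1qa, 0.49 for C1qb and 0.32 for C1qc, and C1qb and C1qc passed (edgeR adjusted p of 0.053, 0.0084 and 0.042), where 8.18% of all tested genes were called higher. With libraries scaled to the 17 markers without Lyz2, a setting added after the data were seen, they were 0.02, 0.08 and -0.09 (edgeR adjusted p of 0.89, 0.51 and 0.53). That scaling moved the median of all tested genes to -0.548, and 1.59% of them were called higher and 18.7% lower. Of the 18 macrophage markers 7 rose, a larger share than the 14.1% of all tested genes called higher, and none fell, beside 18.7% called lower. Their median log2 fold change was 0.47 beside -0.005 over all tested genes. The part of macrophage content in the C1q values was not tested.

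**Figure D2:**
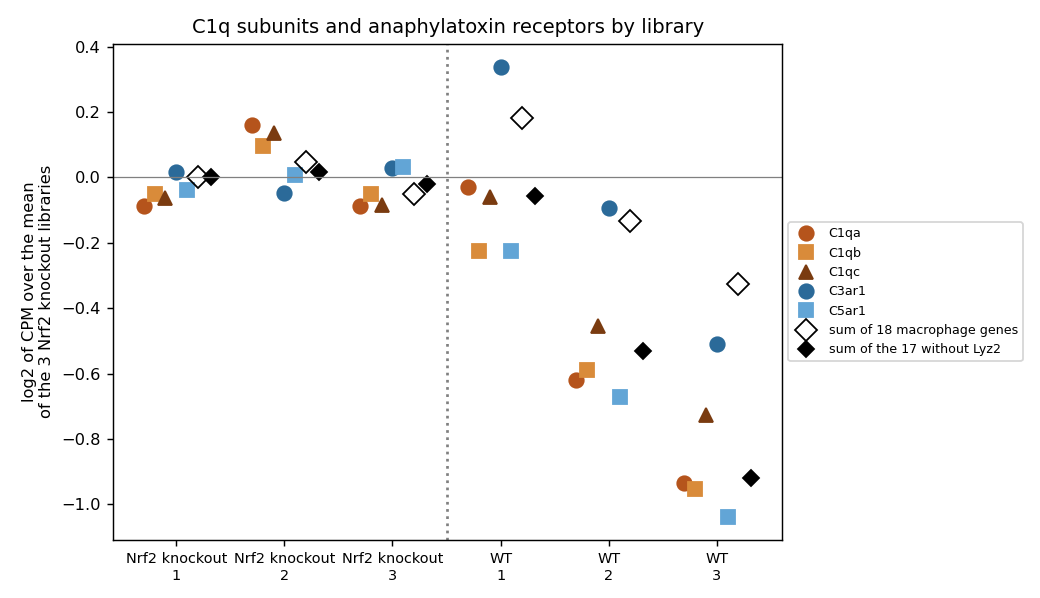
Log2 of each library's CPM over the mean of the 3 Nrf2 knockout libraries, for the C1q genes, both receptors, the sum of 18 macrophage markers (open diamonds) and the sum of the 17 without Lyz2 (filled diamonds), with knockout libraries left of the dotted line and WT right of it. Knockout libraries lie close together, the C1q and receptor points spread widely over the WT libraries, and the filled diamonds fall lower than the open ones in each WT library.

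Both anaphylatoxin receptors were abundant, but only C5ar1 was set apart by genotype in every library. C5ar1, the receptor for the C5a fragment, had 830, 858 and 872 CPM in Nrf2 knockout libraries, against 730, 535 and 415 CPM in WT libraries. Each knockout library exceeded each WT library. Its log2 fold change of 0.61 (SE 0.20) did not pass, at an edgeR adjusted p of 0.053. It passed in 8 of 16 alternatives, with an adjusted p from 0.00016 without WT replicate 1 to 0.31 with scaling to the markers other than Lyz2, where its log2 fold change was 0.14.

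C3ar1, the receptor for C3a, had 1346, 1289 and 1360 CPM in knockout libraries and 1685, 1248 and 935 CPM in WT libraries. The WT libraries bracketed the knockout libraries. Its log2 fold change of 0.05 (SE 0.21) had an edgeR adjusted p of 0.88. Over 16 alternatives the log2 fold change ran from -0.42 to 0.29. It passed in 1 of them, as lower in knockout, with scaling to the markers other than Lyz2 (log2 fold change -0.42, edgeR adjusted p of 0.018).

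The ratio of the receptors separated the genotypes with little spread. C5ar1 FPKM over C3ar1 FPKM was 1.03, 1.12 and 1.07 in Nrf2 knockout libraries, against 0.726, 0.718 and 0.744 in WT libraries. It averaged 1.07 ± 0.0415 in knockout and 0.729 ± 0.0132 in WT (SD, n = 3 each). The WT ratio spread little although C5ar1 and C3ar1 themselves varied 1.76-fold and 1.80-fold between the highest and lowest WT library. An exact permutation test, two-sided, gave p = 0.1, the smallest possible here (0.133 adjusted over the 4 ratios). This ratio too was chosen after its values were seen, and ratios of other gene pairs were not tested. Neutrophils also carry C5a receptors, and the 9 neutrophil markers summed to 311 to 356 CPM in knockout and 46.5 to 132 CPM in WT. Of the 9, 7 were called higher, beside 14.1% of all tested genes. Csf3r (log2 fold change -0.16) and Ly6g (1.45) did not pass, at edgeR adjusted p of 0.44 and 0.27. Elane and Mpo, both called, and Ly6g entered the test through their knockout counts alone. The part of neutrophils in the ratio was not tested.

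**Figure D3:**
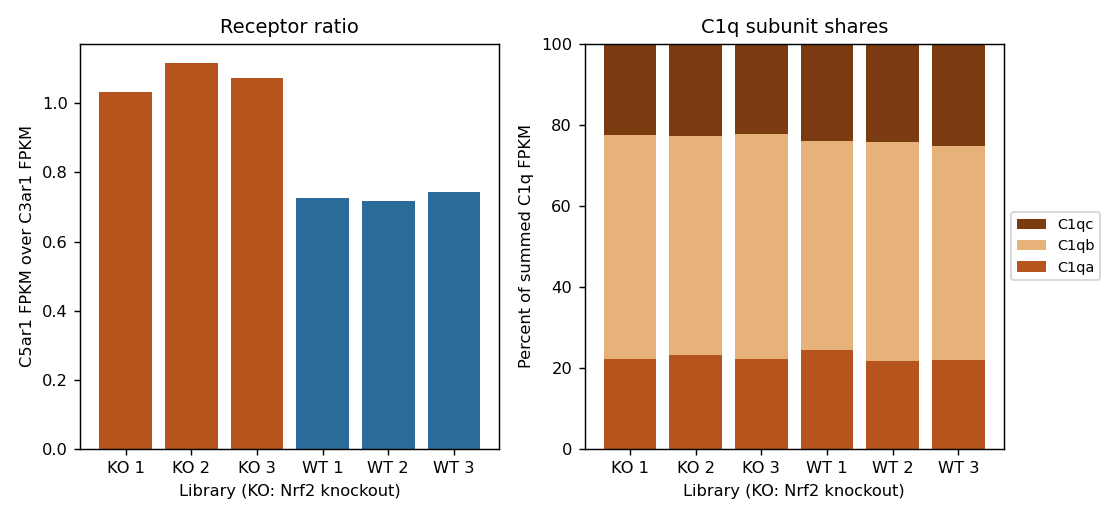
Left, C5ar1 FPKM divided by C3ar1 FPKM in each library; right, the percentage of summed C1q FPKM from each chain, with Nrf2 knockout libraries (KO) left of WT libraries. The receptor ratio lies above 1 in the 3 knockout libraries and between 0.718 and 0.744 in the 3 WT libraries, while the chain shares differ by a few percentage points at most.

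The components downstream of C1q were scarce. C3, the central protein of all routes, had 158, 193 and 150 counts in Nrf2 knockout libraries and 68, 107 and 202 counts in WT libraries. WT replicate 3 was the highest of all 6 in counts, while WT replicate 1 was the lowest. In CPM these were 7.84, 9.34 and 7.53 in knockout and 3.73, 5.67 and 8.84 in WT, with a log2 fold change of 0.43 (SE 0.30; edgeR adjusted p = 0.31). C3 passed in 1 of 16 alternatives, without WT replicate 3, at a log2 fold change of 0.81 and an edgeR adjusted p of 0.04, where 11.4% of all tested genes were called higher. Its sign turned, to -0.22 (edgeR adjusted p of 0.72), with scaling to the markers other than Lyz2.

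Over the WT libraries C3 was ordered the other way from C1q and both receptors. WT replicate 1, which had the smallest stromal sum, had 0.513 of the mean C3 CPM of the other WT libraries. The same ratio was 1.67 for C1qa, 1.45 for C1qb, 1.44 for C1qc, 1.54 for C3ar1 and 1.54 for C5ar1. The part of stromal content in these orders was not tested.

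C4b, cleaved by C1s next in the classical route, had 1, 5 and 0 counts in knockout libraries and 0, 4 and 0 in WT libraries. Cfb, the protease of the alternative route, had 3, 7 and 5 counts in knockout libraries and 4, 5 and 6 in WT libraries. Both sat at or near the 3-count limit of detection, and a difference was not detectable at this depth. The ratio of counts per total, knockout over WT, was 1.43 for C4b (95% exact interval 0.339 to 6.88) and 0.952 for Cfb (0.434 to 2.09), intervals that cover counting error only. C3, C4b, Cfb and Serping1 are known to respond to interferon or other inflammatory signals in many cell types. Of 18 tested interferon-stimulated genes 12 rose and none fell in knockout, beside 14.1% called higher and 18.7% lower over all tested genes. Mx1, among those that rose, entered the test through its knockout counts alone. The list of 20 summed to 343 to 434 CPM in knockout and 223 to 253 CPM in WT libraries. The part of interferon in the complement values was not tested. Reads of C4b may be shared with its near-identical copy C4a, which had 10, 5 and 3 counts in knockout and 11, 5 and 13 in WT libraries.

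Serping1, which encodes the inhibitor of C1r and C1s, had 8, 6 and 0 counts in Nrf2 knockout libraries, against 13, 46 and 68 in WT libraries. Every knockout library was below every WT library, and WT replicate 1 was the lowest WT library. The summed counts per total were 0.105 of WT (95% exact interval 0.0558 to 0.183, for counting error only and not for the spread between libraries). The fitted log2 fold change was -3.13 (SE 0.85), with an edgeR adjusted p of 0.029. Serping1 entered the test through its WT counts alone. The call was lost when any library other than WT replicate 1 was left out, at edgeR adjusted p of 0.071, 0.099 and 0.064 without knockout replicates 1, 2 and 3, and 0.093 and 0.063 without WT replicates 2 and 3. Without WT replicate 1 it was 0.00062. Serping1 followed the stromal sum in its order over the WT libraries, and the part of stromal content was not tested.

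Other genes of the cascade were taken from a list of 51, of which 23 passed the filter. Of these 2 rose, 6 fell and 15 did not pass, and the 8 called are a share near the 32.9% called over all tested genes (14.1% higher and 18.7% lower). The list had a median log2 fold change of 0.11 beside -0.005 over all tested genes. Another 8 had no count in any library. The called genes described here are C1ra, C1s1, Masp1, Colec12 and Clu, all lower, and Cd93 and Fcnb, both higher; Clu and Fcnb were named after their values were seen.

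**Figure D4:**
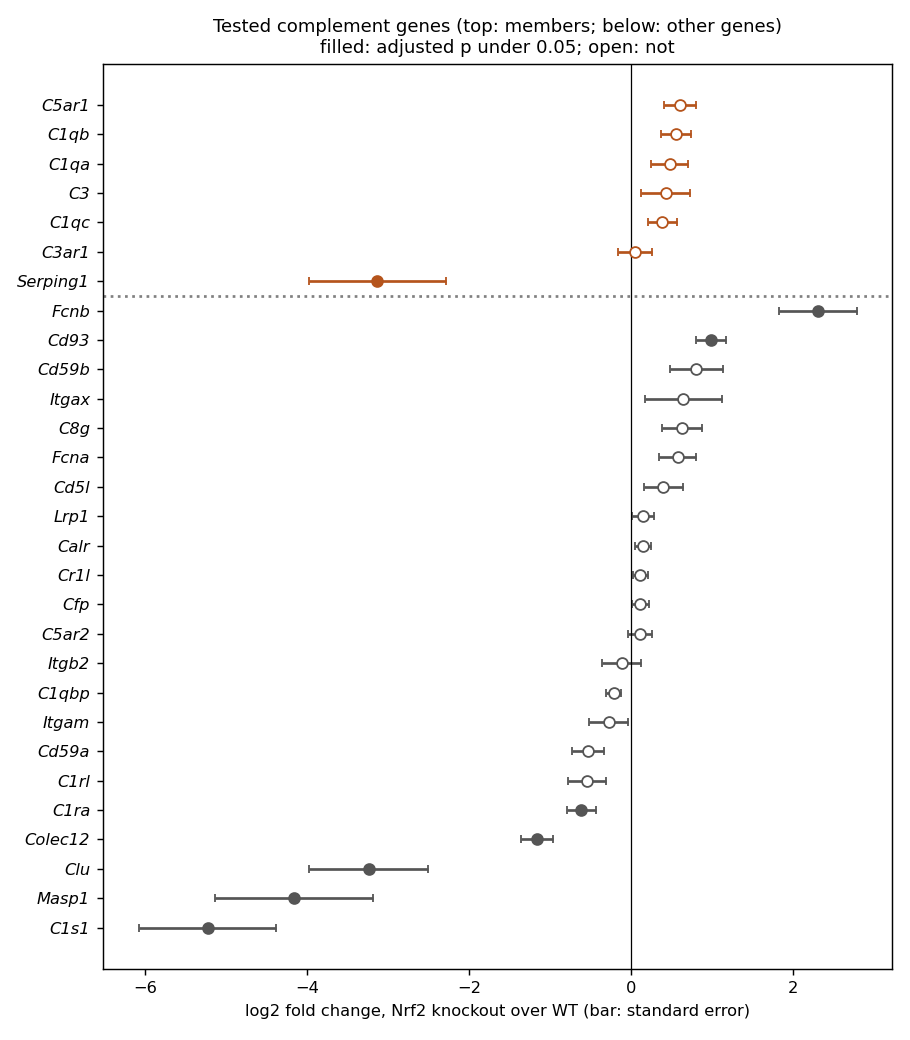
Log2 fold change, Nrf2 knockout over WT, with its standard error for the 7 tested complement genes of the main set (top, orange) and 22 other complement genes (grey); filled points had an edgeR adjusted p under 0.05. Serping1, C1s1, Masp1 and Clu lie furthest to the left with wide errors, and Fcnb lies furthest to the right.

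Among the proteases that pair with C1q or with lectins, C1s1, C1ra and Masp1 fell. C1s1, which encodes C1s, had 0, 2 and 1 counts in knockout libraries, against 14, 43 and 72 in WT libraries. The 3 counts over the knockout libraries gave a count ratio of 0.0221 (95% exact interval 0.00451 to 0.0662, for counting error only; edgeR adjusted p = 0.0046). It entered the test through its WT counts alone. C1ra, which encodes C1r, had 3.18, 3.97 and 4.42 CPM in knockout libraries and 5.48, 6.36 and 5.87 CPM in WT libraries. The groups did not overlap; a log2 fold change of -0.61 (SE 0.18) had an edgeR adjusted p of 0.041, and C1ra passed in 9 of 16 alternatives. It did not pass without any 1 knockout library or without WT replicate 2 or 3 (edgeR adjusted p from 0.066 to 0.14). Nor did C1ra pass with scaling to all macrophage markers or with no filter on low counts (edgeR adjusted p of 0.096 and 0.07). Masp1, a protease of the lectin route, had 13, 27 and 15 counts in knockout libraries and 36, 254 and 760 in WT libraries. Its WT counts varied widely, in the order of the stromal sum (log2 fold change -4.16, SE 0.98; edgeR adjusted p = 0.018). Without knockout replicates 1, 2 and 3 in turn its edgeR adjusted p was 0.077, 0.064 and 0.078. C1rl averaged 3.26 CPM in knockout and 4.76 CPM in WT and did not pass (edgeR adjusted p = 0.13), while C1s2 had 5 counts over the knockout and 4 over the WT libraries and Masp2 had 1 and 1. C2, the partner of C4, had 8, 17 and 3 counts in knockout and 6, 9 and 9 in WT libraries.

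Colec12, a scavenger receptor of the collectin family, had 36.0, 35.5 and 36.7 CPM in Nrf2 knockout libraries and 57.1, 80.1 and 104 CPM in WT libraries. It was lower in every knockout library (log2 fold change -1.16, SE 0.20; edgeR adjusted p = 0.0061) and passed in 16 of 16 alternatives. Clu, the secreted regulator clusterin, had 6, 0 and 7 counts in knockout libraries, against 30, 28 and 70 in WT libraries (edgeR adjusted p = 0.015, or 0.061 and 0.051 without knockout replicates 1 and 3). Clu too entered the test through its WT counts alone.

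Cd93, a myeloid and endothelial surface protein first described as a C1q receptor, was the abundant gene that rose. It had 899, 824 and 958 CPM in Nrf2 knockout libraries, against 585, 408 and 355 CPM in WT libraries. The groups did not overlap, the log2 fold change of 0.99 (SE 0.19) had an edgeR adjusted p of 0.0087, and it passed in 16 of 16 alternatives. Fcnb, a ficolin of myeloid cells, had 43, 60 and 50 counts in knockout libraries, against 5, 5 and 21 in WT libraries (log2 fold change 2.31, SE 0.48; edgeR adjusted p = 0.012, or 0.053 without knockout replicate 2 and 0.088 with scaling to the markers other than Lyz2). Fcnb entered the test through its knockout counts alone. It was higher together with the neutrophil marker sum given above.

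Subunits of the integrin complement receptors did not pass. Itgam averaged 232 ± 6.40 CPM in knockout and 281 ± 107 CPM in WT (SD, n = 3 each). Itgax averaged 203 ± 6.74 CPM in knockout and 129 ± 98.1 CPM in WT, and Itgb2 1388 ± 49.8 CPM in knockout and 1493 ± 539 CPM in WT (SD, n = 3 each). WT replicate 1 held the highest value of all 6 libraries for each of these. Without it Itgax had a log2 fold change of 1.48 and an edgeR adjusted p of 5e-05. With scaling to the markers other than Lyz2 Itgam and Itgb2 passed as lower in knockout, at log2 fold changes of -0.72 and -0.55 (edgeR adjusted p of 0.0099 and 0.0059). C5ar2, the second C5a receptor, averaged 18.4 ± 2.03 CPM in knockout and 17.1 ± 2.90 CPM in WT (SD, n = 3 each), with an edgeR adjusted p of 0.61.

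The surface regulators Cr1l and Cd59a and the alternative-route gene Cfp also did not pass. Cr1l, which encodes the rodent regulator Crry, averaged 50.6 ± 2.03 CPM in knockout and 46.5 ± 4.86 CPM in WT, and Cfp, properdin, 226 ± 16.6 CPM in knockout and 208 ± 20.3 CPM in WT (SD, n = 3 each). Cd59a averaged 11.1 ± 0.772 CPM in knockout and 15.9 ± 4.43 CPM in WT (SD, n = 3 each; edgeR adjusted p = 0.088, or 0.0029 without WT replicate 1). Cd55 had 3, 0 and 3 counts in knockout and 3, 6 and 28 in WT libraries. Cfd, factor D, had 0 counts in all 6 libraries, and Cfi, factor I, had 1 count in WT replicate 3 alone. Hc, the mouse C5 gene, likewise had 1 count in WT replicate 3 alone, so the ligand precursor of C5ar1 was at or under the limit of 3 counts per library throughout.

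The C1q genes, C5ar1 and C3ar1 shared their library pattern with other genes at a closeness measured as the root-mean-square difference of mean-centred log2 CPM over the 6 libraries. Between C1qb and C5ar1 this difference was 0.063, and between the C1q genes it was 0.083 to 0.095. C3ar1 stood 0.195 to 0.263 from the C1q genes and 0.281 from C5ar1, and Serping1 at least 1.81 from every other gene of the set. Among 8441 other protein-coding genes of at least 10 CPM, Camk1, P2rx4 and Cst3 were closest to C1qb, at 0.024, 0.027 and 0.034. Sh3bgrl3, Cyba and Trem2 were closest to C1qa, at 0.054, 0.055 and 0.057, and Lamtor1, Vamp8 and Tmem9b to C1qc, at 0.022, 0.027 and 0.033. Lgmn, Stxbp2 and Adgre1 were closest to C5ar1, at 0.034, 0.039 and 0.04, and Tmem221, Dusp3 and Cd300a to C3ar1, at 0.039, 0.045 and 0.046. Among genes of at least 10 CPM, C3 had no neighbour closer than 0.154 (Ckap2 and Trim59, then Ifitm3 at 0.156). Serping1 had none closer than 0.609 (Lrig1, then Nxn at 0.628 and Mmp9 at 0.635). C3 and Serping1 themselves averaged under 10 CPM in both genotypes, so genes as scarce as these could not be neighbours.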

How the data were processed

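The authors deposited 1 table of 55401 mouse genes with raw read counts and FPKM per library. The submitters' processing notes name mm10 as the build and list DESeq2, HTSeq 0.6.1 and HISAT2 2.0.1 with no role. The sources used here do not say whether counts are stranded. Each deposited FPKM equals the count over exonic length and column total within 0.005. Tests used edgeR 4.0.16 in R 4.3.3 (filterByExpr with a minimum count of 10, TMM factors, genotype as the only term). Log2 fold changes are knockout over WT, and SE is the size of the log2 fold change divided by the root of the F statistic. CPM uses TMM factors. Alternatives were DESeq2 1.42.0, limma 3.58.1 on log2(FPKM + 1) and log2(FPKM + 0.1), other scalings and filters, a replicate block and dropping each library in turn; scaling to the macrophage markers without Lyz2 was added after the data were seen. Scripts were tested on simulated counts that had the same dispersion in both genotypes, unlike these libraries, so that test does not speak to their uneven spread. Replicate libraries differed by more than counting error, and WT libraries far more than knockout libraries. Chi-square over degrees of freedom was 3.24 to 8.26 between knockout libraries and 33.2 to 162 between WT libraries.

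The members and gene lists were chosen with earlier results of these data known. Named are the 9 members, other complement genes called with at least 10 CPM in the higher genotype, a fixed set of other complement genes (1 is not reported here), and the 3 closest genes to each tested member. Closeness used log2 CPM with a prior count of 2, and genes with a predicted name were left out as neighbours. Low members rest on few counts, which limits their precision.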

Additional observations from a re-analysis of the deposited data

How the results depend on the processing

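The number of complement genes called higher in knockout was 0 with edgeR, TMM and a filter on low counts. It was 2 (C1qb and C5ar1) with library totals, with no filter on low counts, with DESeq2 and with limma on log2(FPKM + 1) or log2(FPKM + 0.1), 3 (with C1qc) when libraries were scaled to the macrophage markers, and 0 to 4 when a library was left out. That scaling moved the median of all tested genes to -0.112. Scaling to the same markers without Lyz2, added after the data were seen, moved that median to -0.548 and gave 0 complement genes higher and 2 lower, Serping1 and C3ar1, the second with its sign reversed at -0.42; it gave 1 of the other complement genes higher and 209 of all tested genes higher. The number lower was 1 (Serping1), 0 with limma, 0 at a mean FPKM of at least 1 (a filter that also applied to limma, so that Serping1 was tested in none of these), 0 at an adjusted p under 0.01, and 0 to 1 when a library was left out. Of the other complement genes 2 were higher and 6 lower. At an adjusted p under 0.01 these were 1 and 3, with limma or a mean FPKM of at least 1 there were 3 lower, and leaving out a library gave 1 to 6 higher and 3 to 9 lower. Of all tested genes 1865 were higher and 2468 lower. These were 734 and 1389 at an adjusted p under 0.01, 1079 were higher with scaling to macrophage markers, 1506 and 1564 were lower with limma at the pseudocounts of 1 and 0.1, and leaving out a library gave 875 to 3188 higher and 1616 to 3713 lower. With the replicate number as a replicate block, 2 complement genes were called higher (C1qb and C5ar1) and 1811 of all tested genes. The numbers are not known to pair the libraries: deviations of libraries with the same number correlated at 0.203, 0.136 and 0.078, and WT replicate 3 correlated best with knockout replicate 2. The cause of these changes was not tested.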
